A study of Homo sapiens with 7 samples.

Results

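The miR-320 family was followed through small RNA sequencing of RNA pulled down with a BRAF-X1 mRNA from A375, a human melanoma cell line. Members were the mature microRNAs whose name is miR-320 and a letter from a to e. That gave 4 of the 480 mature names deposited, hsa-miR-320a, hsa-miR-320b, hsa-miR-320c and hsa-miR-320d (written without the prefix from here on), in 6 of 498 hairpin rows. The captures were 3 libraries with ODD probes and 3 with EVEN probes, both directed at the 3′ UTR of the X1 isoform of BRAF and called X1 probes here, and 1 library with scrambled probes. All 7 came from A375 cells harvested 24 h after seeding and fixed with 1% formaldehyde for 10 min, then carried through miR-CATCHv2.0, a protocol that captures an mRNA with probes so that its bound microRNAs can be read. Levels are in RPM, the reads of a microRNA per 1000000 reads summed over all hairpin rows of its library.

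MicroRNAs are short RNAs that guide Argonaute proteins to mRNAs through their seed, bases 2 to 8 counted from the 5′ end. Most are cut from a long transcript by the nuclease Drosha and then from a hairpin by Dicer. In mouse cells the miR-320 hairpin is known to be made directly by transcription with a 5′ cap and to skip Drosha, as is that of miR-484. The word Drosha-independent is background from those cells, since the captures measured mature microRNAs and hold no measure of how they were cut. miR-320a is known to repress phosphofructokinase of muscle type, an enzyme of glycolysis, among other targets.

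Mature sequences show how close miR-320b, miR-320c and miR-320d are, since these part only at their last bases. They are printed 5′ to 3′ from RefSeq (GRCh38.p14), with the seed in capitals. miR-320a was not among the sequences compared.
miR-320b: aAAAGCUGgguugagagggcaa
miR-320c: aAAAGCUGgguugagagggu
miR-320d: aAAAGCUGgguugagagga
miR-320e: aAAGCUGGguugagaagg
miR-4429: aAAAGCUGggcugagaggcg
miR-320b has 22 bases, miR-320c 20 and miR-320d 19. miR-320c shares its first 19 bases with miR-320b, and miR-320d its first 18. The 3 carry the seed AAAGCUG, as does miR-4429, and these 4 were the names with that seed among the 2370 RefSeq names searched, which did not include miR-320a. miR-4429 shares 10 bases with miR-320b from the 5′ end. miR-320e, with 18 bases and the seed AAGCUGG, was not among the mature names deposited.

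The loci are spread over the genome. The mature miR-320b is encoded at chr1:116671787-116671808 on the plus strand (MIR320B1), outside any other annotated gene span, and at chr1:224257049-224257070 on the minus strand (MIR320B2), within the span of NVL. The loci of miR-320c on chromosome 18 lie within the spans of ABHD3 and OSBPL1A. Those of miR-320d on chromosomes 13 and X lie outside other gene spans. Reads of the mature sequence alone cannot separate copies that share it. The deposited hairpin rows of such copies were nearly the same, but not identical. mir-320b-1 and mir-320b-2 held 152 reads each in total and differed by a single read in ODD replicate 2 (55 and 54) and in the scrambled library (9 and 10). mir-320c-1 held 8 reads and mir-320c-2 held 7. The row with more RPM stood for each name, mir-320b-2 and mir-320c-1.

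Depth limited every value. The total over all rows was 4049 to 35508 reads in X1-probe libraries, against 4647 reads with scrambled probes. It counts a name with several hairpin rows once for each. With 1 row per name the total was 3046 to 25679 reads, against 3479 reads. In ODD replicate 2, which was sequenced most deeply, 1 read was worth 28.2 RPM, and in the scrambled library 215 RPM. Of 5 melanocyte markers, 2 had rows, miR-204-5p and miR-509-3p. miR-204-5p, made in pigment cells, averaged 2286 ± 517 RPM over the X1-probe libraries (SD, n = 6), against 861 RPM in the scrambled library. miR-509-3p, of an X-linked cluster, averaged 71.4 ± 101 RPM (SD, n = 6, 5 reads) against 215 RPM, or 1 read. Of 4 blood cell markers 2 had rows (1 tested), of 5 epithelial markers 3 (2 tested), of 4 muscle markers 2 (2 tested) and of 3 neuronal markers 2 (1 tested). None of those tested passed in a comparison below. miR-451a, also planned as a blood cell marker, is not in that count and is given below as skipping Dicer.

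miR-320a was the most abundant member. It ranked 30th of 480 names by mean RPM and held 375 of the family's 537 reads, or 69.8%. With ODD probes it had 4713, 4027 and 4199 RPM in replicates 1 to 3 (51, 143 and 17 reads). With EVEN probes it had 4520, 5727 and 3566 RPM (42, 83 and 17 reads), and with scrambled probes 4734 RPM (22 reads, exact 95% interval 2969 to 7159). EVEN replicate 2 was the one X1-probe library above the scrambled value, and the ODD values lay inside the range of the EVEN values. Intervals are Clopper-Pearson. They and the limits for counts of 0 cover counting error alone, and not the variation between captures. Several reads can come from 1 molecule, and the intervals are then too narrow.

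miR-320b ranked 55th, with 152 reads or 28.3% of the family. It had 1386, 1521 and 988 RPM in ODD replicates 1 to 3 (15, 54 and 4 reads). EVEN replicates 1 to 3 had 1722, 3243 and 1259 RPM (16, 47 and 6 reads), and the scrambled library 2152 RPM (10 reads, exact 95% interval 1032 to 3954). EVEN replicate 2 again stood above the scrambled value and the other 5 X1-probe libraries below it. Its exact 95% interval, 2384 to 4310 RPM, lay above that of ODD replicate 2, 1143 to 1984 RPM, the other deep library.

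The remaining members were near the limit of detection. miR-320c ranked 209th with 8 reads. ODD replicates 1 to 3 gave 1, 5 and 0 of these reads and EVEN replicates 1 to 3 gave 1, 0 and 0. The scrambled library gave 1 read, which stands for 215 RPM there. The counts of 0 allow up to 741 RPM in ODD replicate 3, 207 RPM in EVEN replicate 2 and 629 RPM in EVEN replicate 3, taken as 3 reads of the library. miR-320d had 2 reads, both in ODD replicate 2, and 14 other names had the same mean RPM. The scrambled library's 0 reads of miR-320d allow up to 646 RPM. miR-4429, which shares the seed, had 1 read, in ODD replicate 1.

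**Figure D1:**
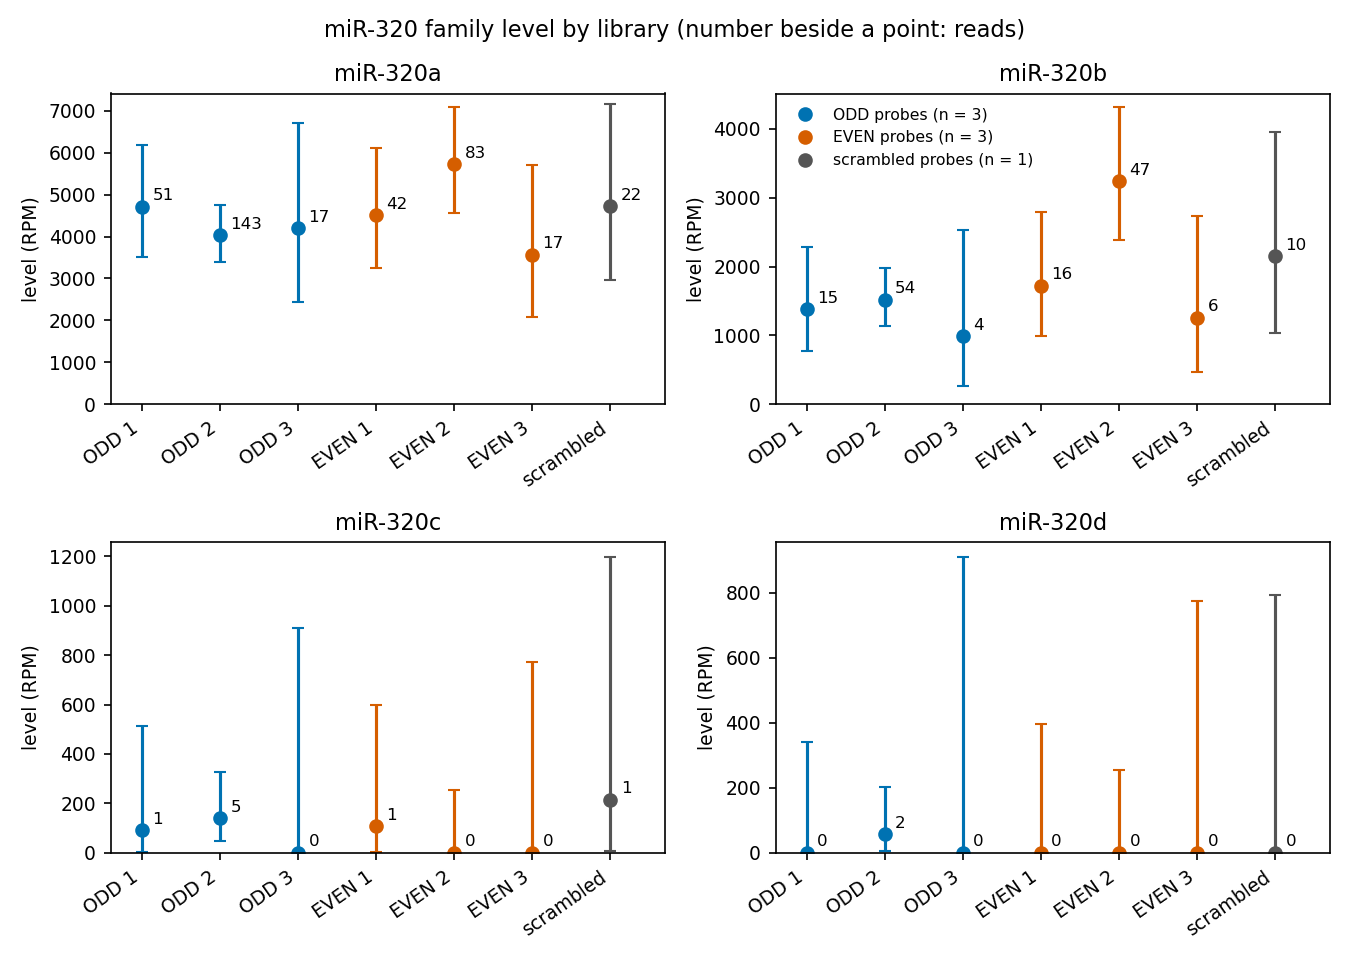
Level in RPM (vertical axes) of each miR-320 member in the 3 ODD, 3 EVEN and 1 scrambled library, with exact 95% intervals and the number of reads beside each point. miR-320a ran from 3566 to 5727 RPM with X1 probes against 4734 RPM with scrambled probes, and miR-320b peaked at 3243 RPM in EVEN replicate 2.

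The order of the members was the same in each library that could show it. miR-320a exceeded miR-320b in 7 of 7 libraries, and their exact 95% intervals were apart in 4 of them. miR-320b exceeded miR-320c in 7 of 7 libraries, with intervals apart in 4. miR-320c and miR-320d differed by less than their intervals. RPM is not scaled to length, and the sequences printed are 18 to 22 bases long.

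Together the 4 members took 0.571% ± 0.0503 of the reads over all rows with ODD probes and 0.671% ± 0.210 with EVEN probes (SD, n = 3 each). That total counts a name with several hairpin rows once per row, while each member was counted in 1 row, so these shares are low. With 1 row per name the scrambled library held 3479 reads in place of 4647. The scrambled library gave 0.710% (33 reads, exact 95% interval 0.489 to 0.996). Over the 6 X1-probe libraries the summed level ran from 4825 RPM in EVEN replicate 3 to 8970 RPM in EVEN replicate 2, with a median of 5968 RPM, against 7101 RPM with scrambled probes. The scrambled value lay below EVEN replicate 2 and above the other 5 X1-probe libraries.

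The share of miR-320b among reads of miR-320a and miR-320b compares the members within a library, so it does not depend on the RPM total. It was 22.7%, 27.4% and 19.0% in ODD replicates 1 to 3, 27.6%, 36.2% and 26.1% in EVEN replicates 1 to 3, against 31.2% for scrambled probes. The exact 95% intervals were 21.3 to 34.2% in ODD replicate 2 and 27.9 to 45.0% in EVEN replicate 2, which overlap, and 16.1 to 50.0% in the scrambled library. ODD averaged 23.1% ± 4.19 and EVEN 29.9% ± 5.43 (SD, n = 3 each), a difference of -6.88 percentage points (exact two-sided permutation p = 0.2). An exact permutation test of 3 against 3 libraries cannot go below p = 0.1.

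**Figure D2:**
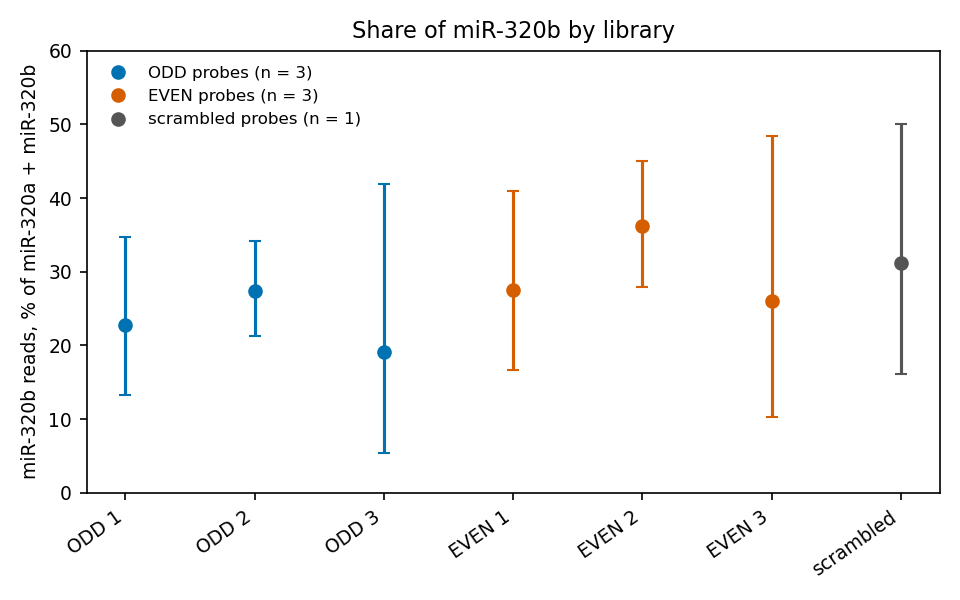
Share of miR-320b in percent of the reads of miR-320a and miR-320b (vertical axis) in each library, with exact 95% intervals. The X1-probe libraries ran from 19.0 to 36.2% and the scrambled library lay at 31.2%, with intervals that overlap throughout.

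miR-320a and miR-320b differed in how far they spread over the X1-probe libraries. The coefficient of variation of miR-320a was 16.6%, next to 16.8% given by counting error alone. That of miR-320b was 47.5%, next to 27.3% by counting error. Among 51 microRNAs with a mean of 1000 to 10000 RPM the median was 25.7%, with 4 of the 51 below miR-320a and 46 below miR-320b. With a mean of 1753 RPM, miR-320b lay near the low end of that range, where counting error is larger. Its neighbours just below in abundance had 1467 ± 661 (miR-1307-3p), 1407 ± 716 (miR-6087) and 1501 ± 872 RPM (let-7g-5p). Those just above had 2035 ± 420 (miR-27a-3p), 2111 ± 608 (miR-30c-5p) and 1978 ± 735 RPM (miR-28-3p; SD, n = 6 each). Both spreads were smaller without EVEN replicate 2, the highest X1-probe library for both, which was chosen after its values were seen. The coefficient of variation was then 20.1% for miR-320b and 10.6% for miR-320a. The mean of miR-320b over the X1-probe libraries was 1686 ± 802 RPM (SD, n = 6) with that library and 1375 ± 276 RPM (SD, n = 5) without it.

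Each of the pair was the microRNA most like the other. Likeness was Pearson's r of log2(RPM + 10) over the 7 libraries, among 68 tested microRNAs with a mean of at least 1000 RPM. For miR-320a the lead was narrow, with r = 0.795 for miR-320b against 0.788 for miR-1260a. Between miR-320a and miR-320b r was 0.79 (exact permutation p = 0.0377) and Spearman's rho 0.75 (exact permutation p = 0.0663), both two-sided, the single relation tested. Without EVEN replicates 2 and 3, the libraries farthest from the median of miR-320a, r was 0.52 (exact permutation p = 0.392, n = 5). Leaving out the most extreme values narrows the range, so this cannot decide whether the relation rests on those libraries. Without EVEN replicate 2 alone, a choice made after its value was seen, r was also 0.52 (exact permutation p = 0.306, n = 6). No group holds enough libraries for a value of its own. Both levels share a library total, whose part in the relation was not tested.

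As a description, the next most like miR-320a were miR-1260a (r = 0.79), miR-1260b (0.66), miR-3651 (0.59) and let-7b-5p (0.57). The correlation of these with log2 depth over the same 7 libraries was 0.63, 0.79, 0.14 and 0.19, and that of miR-320a itself 0.20. For miR-320b it was 0.32.

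**Figure D3:**
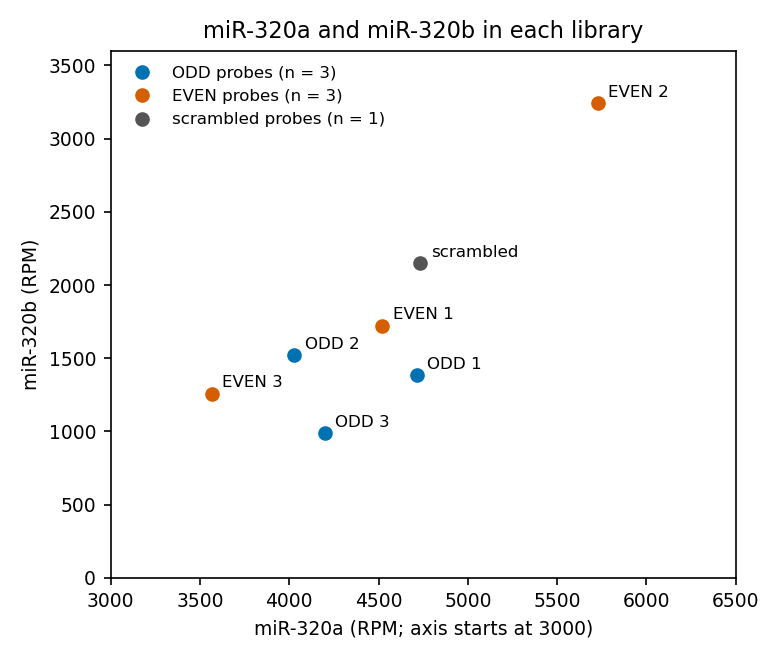
miR-320a (horizontal axis, RPM, not starting at 0) against miR-320b (vertical axis, RPM) in the 7 libraries, coloured by probe set. EVEN replicate 2 has the highest value of both, 5727 and 3243 RPM, and stands apart from the other libraries.

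The first comparison addressed which microRNAs bind the BRAF-X1 mRNA: X1 probes against scrambled probes. No member of the family passed the test, in a comparison in which 0.826% of the 242 tested microRNAs were called. The X1-probe libraries averaged 4459 ± 739 RPM of miR-320a (SD, n = 6), against 4734 RPM in the scrambled library. This is a log2 difference of -0.10 ± 0.38 (SE; limma, adjusted p = 0.880, 95% interval -0.88 to 0.68), and 5 of 6 libraries lay below the scrambled value. For miR-320b, at 1686 ± 802 RPM (SD, n = 6) against 2152 RPM, it was -0.46 ± 0.55 (SE; limma, adjusted p = 0.675, 95% interval -1.58 to 0.66), again with 5 of 6 below. The intervals leave room for a higher level with X1 probes of at most 0.68 and 0.66 on the log2 scale. The scrambled group has a single library, so its spread was taken to be that of the other groups.

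miR-320c and miR-320d gave little to compare. miR-320c was seen in 7 X1-probe reads and 1 scrambled read, with a log2 difference of -2.69 (limma, 95% interval -7.67 to 2.29, adjusted p = 0.673). That size follows the pseudocount of 10 RPM, which is below the worth of 1 read in every library. miR-320d did not reach 10 RPM in 3 libraries and was not tested, so 3 of the 4 members were. The median log2 difference of the 3 was -0.46, and that of all 242 tested was 0.096.

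Neighbours in abundance are given for scale. Just above miR-320a in mean RPM were miR-151a-3p (4726 ± 1511 RPM against 4734 RPM), let-7e-5p (4878 ± 2088 against 3873 RPM) and miR-25-3p (5203 ± 1388 against 3658 RPM), with X1 probes first and scrambled probes after (SD, n = 6). Just below it were miR-151a-5p, miR-423-3p and miR-619-5p, with log2 differences of -0.14, -0.59 and 0.095. Above miR-320b stood miR-27a-3p (log2 difference 0.63), miR-30c-5p (0.25) and miR-28-3p (-0.51), and below it miR-1307-3p (-0.86), miR-6087 (-0.91) and let-7g-5p (-0.014). Around miR-320c the neighbours were miR-28-5p, miR-1-3p and miR-663a above and miR-1254, miR-23a-5p and miR-152-3p below, all with 0 or 1 scrambled read. None of the neighbours passed.

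**Figure D4:**
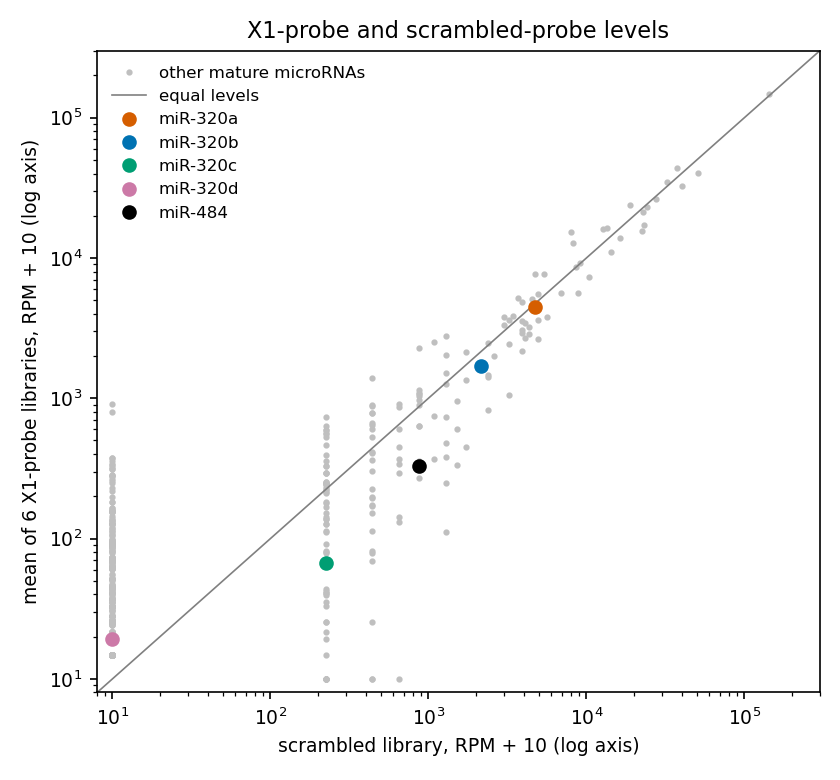
Mean level of the 6 X1-probe libraries (vertical axis) against the scrambled library (horizontal axis), both as RPM + 10 on log axes, for all 480 mature names. miR-320a (4459 against 4734 RPM) and miR-320b (1686 against 2152 RPM) lie close to the line of equal levels.

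Each probe set was then set against the scrambled library by itself, and the share of microRNAs called was 0.826% with each. Both comparisons use the same scrambled library. With ODD probes miR-320a averaged 4313 ± 357 RPM and miR-320b 1298 ± 277 RPM (SD, n = 3 each). The log2 differences were -0.14 for miR-320a (limma, 95% interval -0.97 to 0.70, adjusted p = 0.886) and -0.75 for miR-320b (limma, 95% interval -1.95 to 0.45, adjusted p = 0.729). All 3 ODD libraries lay below the scrambled library for both. With EVEN probes miR-320a averaged 4604 ± 1083 RPM and miR-320b 2075 ± 1038 RPM (SD, n = 3 each). The log2 differences were -0.067 (limma, 95% interval -0.90 to 0.77, adjusted p = 0.933) and -0.17 (limma, 95% interval -1.37 to 1.03, adjusted p = 0.894), and both signs turned without EVEN replicate 3 (0.10 and 0.13) and under quantile scaling (0.069 and 0.15). For miR-320c the log2 differences were -2.07 with ODD and -3.31 with EVEN probes, and neither passed. Without ODD replicate 3 the ODD value was -0.86.

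The ODD and EVEN captures, which target the same transcript, were compared with each other. No member passed, and 0.413% of the 242 tested microRNAs were called. miR-320b had a log2 difference of -0.58 ± 0.42 (SE; limma, adjusted p = 0.979, 95% interval -1.43 to 0.27; exact two-sided permutation p = 0.3), and it was -0.20 without EVEN replicate 2. For miR-320a the log2 difference was -0.071 (limma, 95% interval -0.66 to 0.52, adjusted p = 0.981; exact two-sided permutation p = 0.8), with a sign that turned to 0.10 without EVEN replicate 2. For miR-320c it was 1.24 (limma, 95% interval -2.52 to 5.0, adjusted p = 0.979; exact two-sided permutation p = 0.7). That value ran from 0.49 without ODD replicate 2 to 2.45 without ODD replicate 3, with 2.42 without EVEN replicate 1, 0.77 without ODD replicate 1 and 0.65 without EVEN replicate 2 or EVEN replicate 3. Adjusted over the 5 permutation tests of this kind, which include the share of miR-320b and miR-484, the lowest p was 0.667.

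**Figure D5:**
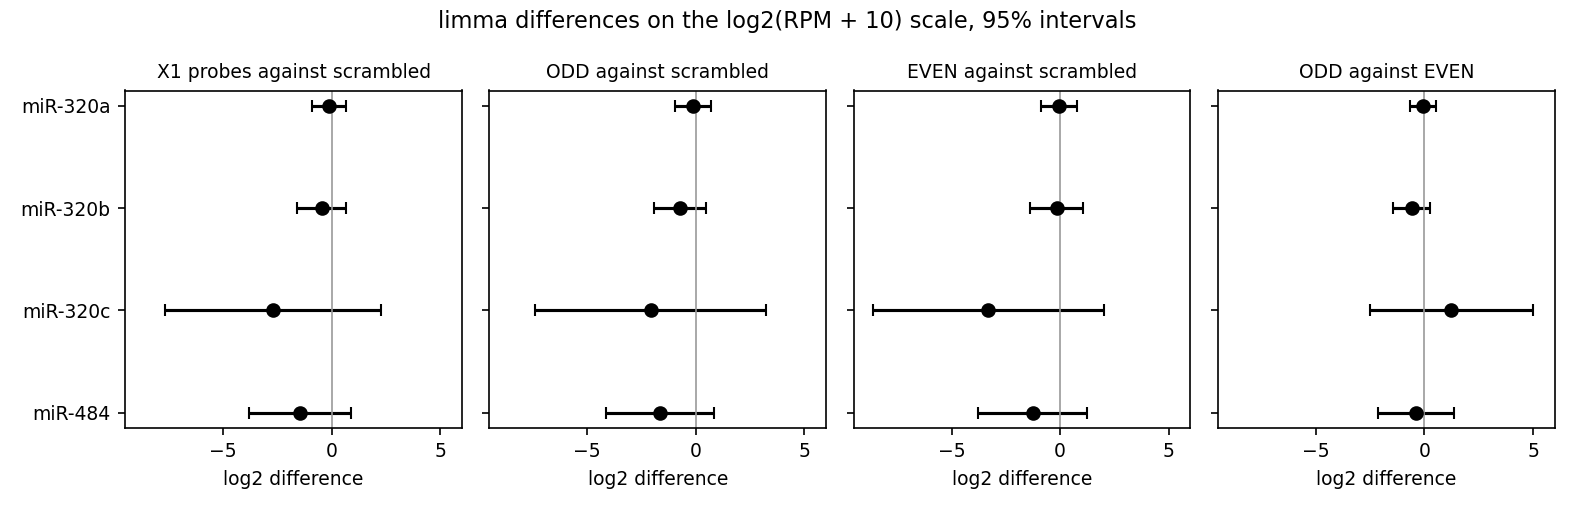
limma log2 differences on the log2(RPM + 10) scale (horizontal axes) with 95% intervals for the 3 tested members and miR-484 in the 4 comparisons. Each interval includes 0, and those of miR-320c, with 8 reads in all, are the widest.

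MicroRNAs known to be made outside the usual route were read beside the family. miR-484, whose hairpin is also known in mouse cells as capped and Drosha-independent, reached 277, 282 and 247 RPM with ODD probes (3, 10 and 1 reads in replicates 1 to 3). It had 215, 483 and 420 RPM in EVEN replicates 1 to 3 (2, 7 and 2 reads) and 861 RPM in the scrambled library (4 reads, exact 95% interval 235 to 2202). All 6 X1-probe libraries lay below the scrambled value, with a log2 difference of -1.45 (limma, 95% interval -3.79 to 0.88, adjusted p = 0.673). Between ODD and EVEN its log2 difference was -0.38 (limma, 95% interval -2.15 to 1.38, adjusted p = 0.981).

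Mirtrons, which are cut from short introns by splicing in place of Drosha, had 2 of 20 listed names in the table. miR-877-5p was the 1 tested, at 594 ± 420 RPM over the X1-probe libraries (SD, n = 6) against 646 RPM, or 3 reads, in the scrambled library. It did not pass. miR-1237-3p had 1 read. Of 6 names that overlap small nucleolar RNAs, miR-664a-5p had 2 reads and miR-664b-3p and miR-1291 had 1 each. miR-451a, which is cut by Argonaute 2 and skips Dicer, had 1 read, in ODD replicate 1.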

How the data were processed

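The authors deposited 1 table of RPM, reads scaled to a library total of 1000000 over 498 hairpin rows (480 mature names). CASAVA 1.8 and cutadapt 1.2.1 are named per the submitters' processing notes. The genome build, the aligner, the microRNA annotation and how reads were counted were not given in the sources used here. Every value was a whole multiple of 1 read (100% at a tolerance of 1e-06), which gave the reads printed.

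On log2(RPM + 10), limma (version 3.58.1, R version 4.3.3) fitted 3 group means, eBayes with a trend, 4 residual and 28.6 prior degrees of freedom, and Benjamini-Hochberg adjustment over 242 microRNAs at 0.05. Tested were those with 10 RPM or more in 3 or more libraries. Other values were computed in Python 3.11.15 with scipy 1.17.1. Sequences and loci come from RefSeq (GRCh38.p14), where 406 of the 480 names matched.

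The members, lists and tests were chosen with earlier results of these data known. Named were all members, microRNAs sharing the seed, miR-484, up to 3 tested names of the mirtron, small nucleolar RNA and Dicer-independent lists, 3 neighbours in abundance on each side (none for miR-320d, which is tied) and the 5 most alike to miR-320a. Other names with reads from the small lists were added after their values were seen. Alternatives were other pseudocounts, filters and scalings, summed hairpin rows, eBayes without trend, a replicate block and each X1-probe library left out. The series' design text calls the captures independent.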

Additional observations from a re-analysis of the deposited data

Results flagged for a closer look

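EVEN replicate 2 stood apart from the other 5 X1-probe libraries in 2 of the 6 quantities examined for such gaps by Dixon's criterion, with ODD and EVEN libraries taken as 1 group of 6. Chance flags about 1 in 20 such groups, and the 2 quantities are not independent, since one is part of the other. miR-320b reached 3243 RPM there, with the next library at 1722 RPM, a gap of 0.675 of the whole range. The summed level of the family reached 8970 RPM, with the next at 6350 RPM, a gap of 0.632 of the range. miR-320a was also highest there, at 5727 RPM, without passing the criterion. That library held 14492 reads over all rows, or 10610 with 1 row per name.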

How the results depend on the processing

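In the 4 comparisons no member passed under any of the 15 alternatives run, and the lowest adjusted p by limma was 0.375. Of 176 member values recomputed, 171 kept their sign and 5 reversed. With EVEN probes against scrambled probes, quantile scaling gave 0.069 for miR-320a and 0.15 for miR-320b on the log2 scale. Leaving out 1 library at a time moved these from -0.24 to 0.10 and from -0.54 to 0.13. For miR-320a with ODD against EVEN probes the range was -0.24 to 0.10, with the reversal without EVEN replicate 2; for miR-320b it was -0.88 to -0.20. The cause was not tested. With the replicate block on the description number (9, 10 and 12, the scrambled library having 12) miR-320b had a log2 difference of -0.94 with X1 probes against scrambled (limma, adjusted p = 0.425), and no call changed. Deviations of same-numbered ODD and EVEN captures from their group means correlated at -0.044, 0.072 and 0.019 over 242 microRNAs. Not every capture correlated best with its own number. At these depths such correlations cannot decide whether same-numbered captures share a batch, which was not tested. Reads over all rows were 10822 (ODD) and 9292 (EVEN) for number 9, and 35508 and 14492 for number 10. For number 12 they were 4049 (ODD), 4767 (EVEN) and 4647 (scrambled). With X1 probes against scrambled the difference of miR-320c ran from -4.49 under the replicate block to -0.63 at the largest pseudocount, and it has no value under a mean of at least 1000 RPM. The 2 planned edgeR alternatives on recovered reads were not run. Depth limits these values, since the scrambled library holds 33 reads of the family, and so does the lack of a second scrambled library.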
